A study of Mus musculus with 6 samples.

Results

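The serum amyloid A genes and other genes of acute phase proteins were followed in CSF-1-stimulated prostate cancer cells. They are a set of 10 genes measured by 11 probes, of 36028 genes and 55378 usable probes on the array. Probes were taken by their gene name in the array files. The set holds Saa1, Saa2, Saa3 and Saa4 (serum amyloid A proteins), Lcn2 (lipocalin 2), Hp (haptoglobin), Orm1 and Orm2 (orosomucoids), Cp (ceruloplasmin) and Ptx3 (pentraxin 3). The genes were chosen by name, with earlier results of these arrays known, and selected on the log2 levels measured at 24 h and 48 h, with attention to a fall between these times. Differences between 48 h and 24 h are therefore given below as descriptions, without a test. Saa2 and Saa3 came into the set through their fall, so none of their differences was tested.

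The arrays compared N18-Fms cells (N18-CFMS in the sample labels) left unstimulated with cells given recombinant murine CSF-1 at 100 ng/mL for 24 h or 48 h, with 2 arrays in each of the 3 groups. The times are those of the labels and of the study's results, and its methods give shorter ones. N18 is 1 luciferase-transfected clone of C2H, itself a clonal line from a tumor of the TRAMP mouse. A retrovirus brought in murine c-fms, the gene of the CSF-1 receptor, and cells with the receptor on their surface were sorted. The unstimulated cells carried luciferase and c-fms too, and the parental line secretes CSF-1, so the unstimulated group may not be free of ligand. RNA came from 2 independent experiments. With 2 arrays in each group, small differences could not be resolved.

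Acute phase proteins are plasma and mucosal proteins whose amounts shift during inflammation. Interleukin 6 and its relatives act on their genes through gp130, STAT3 and the C/EBP factors, and interleukin 1 and tumor necrosis factor act through NF-kB. The liver is the main source, but epithelia, macrophages and tumor cells also make some of them. In mice Saa1 and Saa2 are the acute forms in plasma, Saa3 is made largely outside the liver, and Saa4 is the constitutive form.

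Levels are log2 signals relative to the 75th percentile of the same array, so a level of 0 lies at that percentile and 1 unit is a 2-fold step. A level of 1 probe was not set against that of another, because probes differ in brightness. The scanner software's flag tells whether a spot was well above background, and Saa1, Saa3, Saa4, Lcn2, Hp and Orm1 carried it on all 6 arrays. The brighter Cp probe did too. Of the 10 genes, 9 passed the filter and were tested, and Orm2 was not. Saa2 passed the filter only through the 24 h arrays. On the 6 arrays 58.7 to 72.0% of spots were well above background and no spot was saturated. The labelled epithelial origin was checked with 10 epithelial and prostate markers. Of these, 4 were well above background on all 6 arrays, among them Krt8, whereas Cdh1 and Hoxb13 were so on none.

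Saa2 and Saa3 showed the largest differences of the set. Their probes and promoters are shown here with those of Saa1, a close copy of Saa2, and the promoter of Lcn2, the gene with the clearest call. The probes are 60 bases long, and their first 30 bases, read 5′ to 3′, are as follows.
Saa1 probe: gcagtggcaaagaccccaattactacagac
Saa2 probe: ttactcgagcagtagtaactgcttgaggag
Saa3 probe: ttctttgcatcttgatcctgggagttgaca
On mouse build mm9 the array files place the Saa1 probe on chromosome 7 from 53996070 to 53996129 on the minus strand. The Saa2 probe lies there from 54009622 to 54009681 on the plus strand, and the Saa3 probe from 53970389 to 53970448 on the minus strand. The Saa4 probe lies on the same chromosome from 53983662 to 53983721 (minus strand), the Lcn2 probe on chromosome 2 from 32240199 to 32240258 (minus strand) and the Hp probe on chromosome 8 from 112099045 to 112099104 (minus strand). The exon or UTR each one lies in was not analysed here. Transcripts of Saa1 and Saa2 are alike over most of their length, and how far each probe takes up signal from the other gene was not tested.

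The promoters are windows from 250 bases before to 50 bases after the transcript start, from RefSeq on build GRCm38.p6. Capitals mark matches to a C/EBP-type motif, spelled TTGCNNAA, and to a kB-type motif of 10 letters (GG, any 3 letters, then TTTCC), both searched on either strand. The motifs were chosen with the sequences in view, and a match is a run of letters, not a shown binding site.
Saa1 promoter, chr7:46742931-46743230, minus strand: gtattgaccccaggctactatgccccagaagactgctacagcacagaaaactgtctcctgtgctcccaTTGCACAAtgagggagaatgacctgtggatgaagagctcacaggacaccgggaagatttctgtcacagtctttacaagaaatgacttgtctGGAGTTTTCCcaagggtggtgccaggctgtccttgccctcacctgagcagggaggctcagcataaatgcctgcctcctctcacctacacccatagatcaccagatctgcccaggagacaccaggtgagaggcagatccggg
Saa2 promoter, chr7:46751583-46751882, plus strand: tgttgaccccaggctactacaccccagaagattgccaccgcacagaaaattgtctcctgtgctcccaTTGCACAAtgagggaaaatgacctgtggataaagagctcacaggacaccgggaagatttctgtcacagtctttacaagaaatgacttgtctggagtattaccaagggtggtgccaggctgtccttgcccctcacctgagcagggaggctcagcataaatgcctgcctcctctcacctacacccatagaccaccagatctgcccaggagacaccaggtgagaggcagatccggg
Saa3 promoter, chr7:46715627-46715926, minus strand: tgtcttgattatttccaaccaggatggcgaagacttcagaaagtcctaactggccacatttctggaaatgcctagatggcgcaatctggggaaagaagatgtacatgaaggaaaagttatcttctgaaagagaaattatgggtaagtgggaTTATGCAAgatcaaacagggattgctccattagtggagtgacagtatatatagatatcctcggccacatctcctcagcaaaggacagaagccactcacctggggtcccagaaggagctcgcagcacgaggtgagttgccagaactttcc
Lcn2 promoter, chr2:32387690-32387989, minus strand: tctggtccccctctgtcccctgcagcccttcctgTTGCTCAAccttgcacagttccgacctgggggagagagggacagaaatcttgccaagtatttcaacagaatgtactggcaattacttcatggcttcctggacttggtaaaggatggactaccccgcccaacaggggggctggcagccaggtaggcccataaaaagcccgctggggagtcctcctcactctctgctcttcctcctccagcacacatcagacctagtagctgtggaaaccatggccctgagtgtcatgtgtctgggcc

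The Saa1 and Saa2 windows were 95.3% identical over an aligned length of 301 bases, whereas Saa3 shared 49.4% with Saa1 and 49.8% with Saa2. Saa1 and Saa2 held the same C/EBP-type letters, TTGCACAA, starting 182 and 183 bases before the start. Saa1 also held the kB-type match, starting 91 bases before its start, and the Saa2 window held none. The Saa3 match, TTATGCAA, lay 99 bases before the start, and the Lcn2 match, TTGCTCAA, lay 216 bases before it. Windows were found for 8 of the 10 genes, all but Hp and Orm1, and each of the 8 held a C/EBP-type match, counting 1 of the 2 windows of Cp. That motif was present in 10.8% of all 32851 promoter windows in the RefSeq table. The kB-type motif was present in 1 of the 8 genes and in 5.48% of all windows. A STAT-type motif, TTCNNNGAA, was in none of the 8 genes and in 8.3% of all windows, and a TATA box spelled TATAAA was in 2 of the 8 (Orm2 and Cp) and in 13.6% of all windows. Overlaps between motifs were not removed. These counts describe 8 genes and were not tested.

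**Figure D1:**
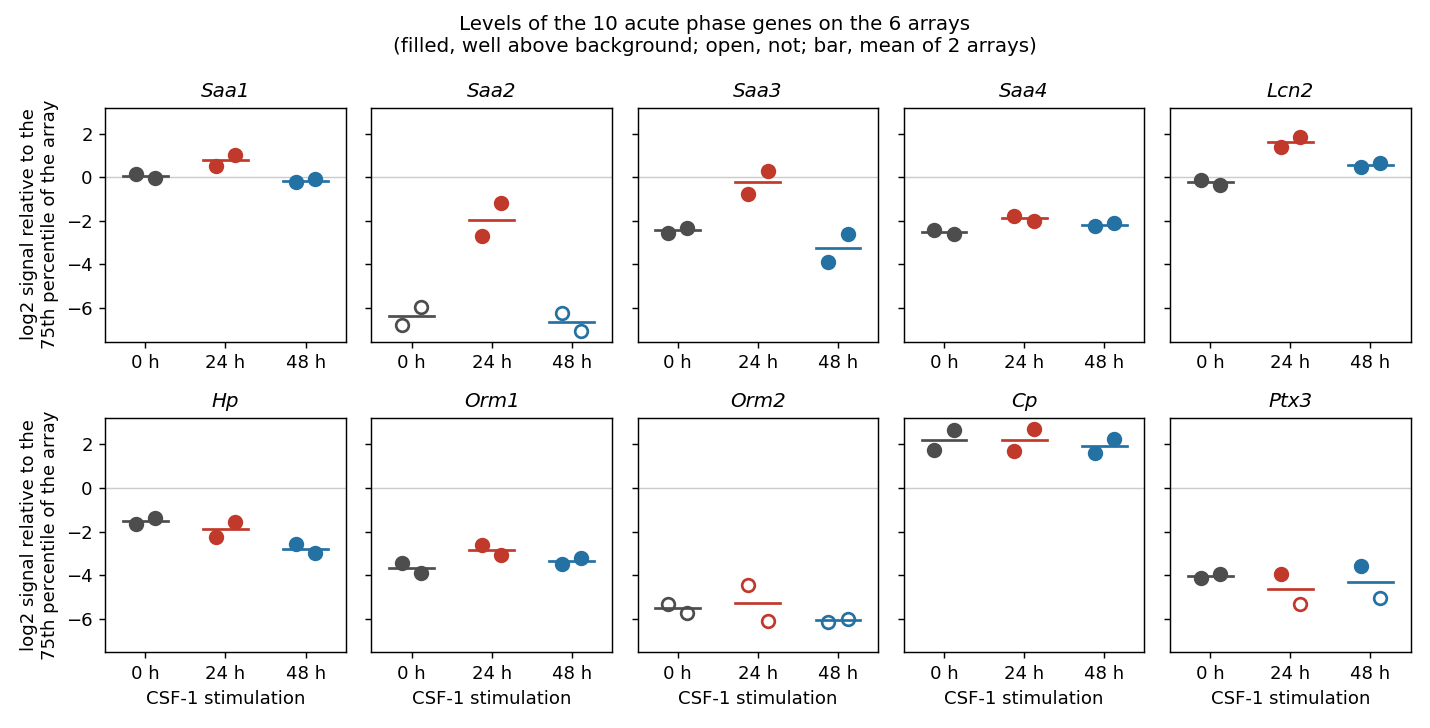
Each panel plots 1 gene by its log2 level, set against the 75th percentile for that array, for 2 arrays of unstimulated cells (0 h) and 2 arrays at each time of stimulation. Filled points were well above background, open points were not, and bars are means of 2 arrays. Saa2 is filled at 24 h and open elsewhere, Saa3 and Lcn2 peak at 24 h, and Hp is lowest at 48 h.

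Saa3, which encodes an inducible serum amyloid A made by epithelia and macrophages, peaked at 24 h. Its levels were −2.55 and −2.31 in unstimulated cells, −0.78 and 0.31 at 24 h, and −3.89 and −2.62 at 48 h. Both 24 h arrays lay above all others, and both 48 h arrays lay below the unstimulated ones, though 1 of them only narrowly. The mean was 2.19 higher at 24 h than in unstimulated cells (SE 0.52, n = 2 and 2), a 4.57-fold difference. From 24 h to 48 h the difference was −3.02 (SE 0.52), an 8.09-fold fall. The 48 h mean was 0.82 below the unstimulated one (SE 0.52). The arrays of a group differed by more than 1 unit at both times of stimulation.

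Saa2, which encodes a major acute phase serum amyloid A of plasma, was measured only in the 24 h cells. Its levels there were −2.71 and −1.18, and both spots were well above background. In unstimulated cells the signals stood at −6.76 and −5.93, and at 48 h at −6.24 and −7.05, and none of these 4 spots was well above background. Saa2 was thus at least 6.89-fold higher at 24 h than in unstimulated cells and at least 6.63-fold lower at 48 h than at 24 h. These bounds set the mean of the 24 h arrays against the dimmest signal that was well above background on each array of the other group. With normexp background correction (offset 50) the differences were 1.49 and −1.54 on the log2 scale, smaller than the bounds. No fold was set between unstimulated and 48 h cells. The fitted difference at 24 h was 4.40 (SE 0.59), and it rests on unstimulated signals below that limit.

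Saa1, the other major acute phase form, was well above background on every array and differed less between groups. Levels were 0.13 and −0.03 in unstimulated cells, 0.52 and 1.03 at 24 h, and −0.22 and −0.08 at 48 h. The 24 h arrays stood above all others, and the 48 h arrays lay just under the unstimulated ones. The difference at 24 h was 0.72 (SE 0.20, a 1.65-fold difference) and did not pass the threshold in limma's moderated test over all genes (adjusted p = 0.069). At 48 h it was −0.20 (SE 0.20, adjusted p = 0.543), and between 24 h and 48 h it was −0.93 (SE 0.20).

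Saa4, the constitutive form carried on lipoproteins, rose slightly. Its levels were −2.43 and −2.61 in unstimulated cells, −1.79 and −1.99 at 24 h, and −2.23 and −2.11 at 48 h. The 3 groups did not overlap, with the 48 h arrays between the other 2. The rise at 24 h was 0.63 (SE 0.13, a 1.55-fold difference, limma adjusted p = 0.039). It missed the threshold when any 1 of the 6 arrays was left out (0.53 to 0.73). At 48 h the difference was 0.35 (SE 0.13, adjusted p = 0.151), and from 24 h to 48 h it was −0.28 (SE 0.13).

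Lcn2 encodes lipocalin 2, a secreted protein that binds bacterial siderophores and so withholds iron. It was at −0.12 and −0.35 in unstimulated cells, at 1.39 and 1.82 at 24 h, and at 0.49 and 0.64 at 48 h. The groups did not overlap, and the 48 h arrays lay between the unstimulated and the 24 h arrays. Lcn2 rose by 1.84 at 24 h (SE 0.18, 3.59-fold, limma adjusted p = 0.006), the lowest adjusted p among the 7 genes with a test. It was still higher at 48 h, by 0.80 (SE 0.18, 1.74-fold, adjusted p = 0.048). That second call was lost without either unstimulated array or without either 48 h array (0.68 to 0.91). From 24 h to 48 h the difference was −1.04 (SE 0.18).

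Hp encodes haptoglobin, which binds free hemoglobin, and its call at 48 h was opposite in direction to that of Lcn2. Levels were −1.66 and −1.37 in unstimulated cells, −2.23 and −1.57 at 24 h, and −2.59 and −2.98 at 48 h. The 24 h arrays overlapped the unstimulated ones, while both 48 h arrays lay below all others. Hp decreased by 1.27 at 48 h (SE 0.27, 2.41-fold, limma adjusted p = 0.039), and this call too was lost without either unstimulated or either 48 h array (−1.46 to −1.08). At 24 h the difference was −0.39 (SE 0.27, adjusted p = 0.396), and from 24 h to 48 h it was −0.88 (SE 0.27).

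The orosomucoids are acid glycoproteins of plasma that bind drugs and lipids. Orm1 was at −3.46 and −3.88 in unstimulated cells, at −2.62 and −3.05 at 24 h, and at −3.48 and −3.21 at 48 h. Its 24 h arrays lay above all others, but the difference of 0.83 (SE 0.22) did not pass the threshold (limma adjusted p = 0.067), nor did the 0.33 at 48 h (adjusted p = 0.382). Orm2 was well above background on 0 of 6 arrays. Orm1, Orm2 and Orm3 are close copies, so signal between their probes may be shared.

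Cp encodes ceruloplasmin, a copper-carrying ferroxidase, and its 2 probes name different transcripts. The brighter one was at 1.76 and 2.68 in unstimulated cells, at 1.72 and 2.71 at 24 h, and at 1.60 and 2.26 at 48 h. The second array of each group was the higher one, and the differences between groups (0.00 at 24 h and −0.29 at 48 h, both with SE 0.47) were smaller than the gap between arrays of a group. The other probe was well above background on 2 of 6 arrays, 1 at 24 h and 1 at 48 h. Ptx3 encodes a long pentraxin made by many tissues in response to cytokines. It was at −4.14 and −3.93 in unstimulated cells, at −3.94 and −5.32 at 24 h, and at −3.57 and −5.05 at 48 h, and the second array of each stimulated group was not well above background. The limma adjusted p was 0.584 at 24 h and 0.816 at 48 h for Ptx3, and 0.997 and 0.733 for Cp.

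**Figure D2:**
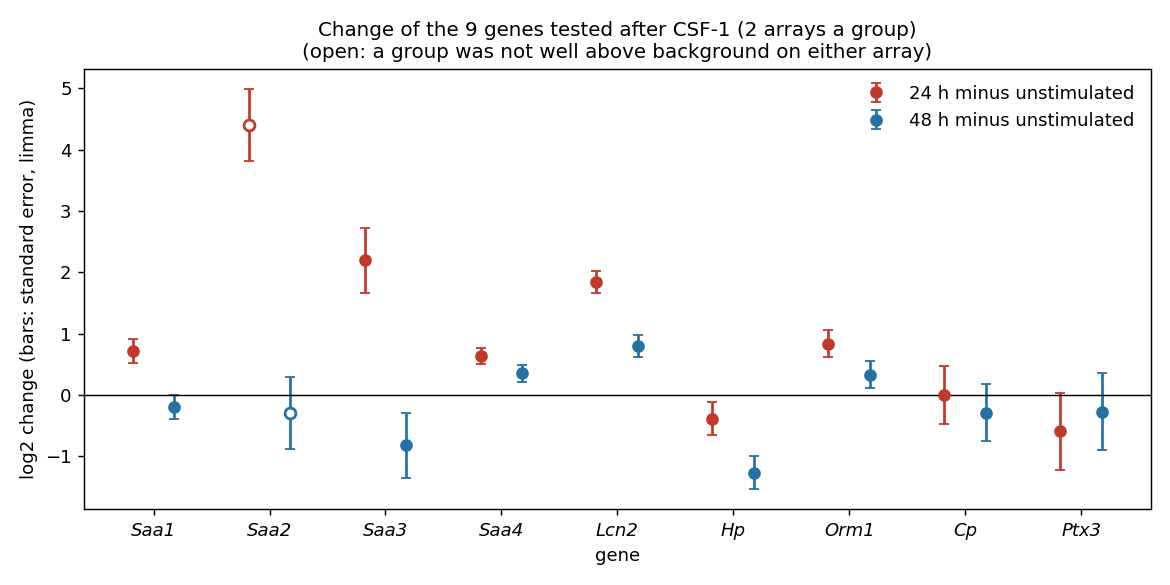
Points give the log2 difference from unstimulated cells at 24 h (red) and 48 h (blue) for the 9 genes tested, with bars for the standard error of the limma fit. Open points rest on a group that was not well above background on either array. The 24 h point lies above the 48 h point for 8 of the 9 genes, Ptx3 being the exception.

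Counted over the 7 genes tested other than Saa2 and Saa3, 2 rose at 24 h (Lcn2 and Saa4) and 0 fell, at a limma adjusted p under 0.05. Over all 24643 genes tested, 8.02% were called higher and 5.99% lower at 24 h. At 48 h 1 of the 7 was called higher (Lcn2) and 1 lower (Hp), beside 6.58% and 7.38% of all genes. The median difference of the 7 genes was 0.63 at 24 h and −0.20 at 48 h, where the medians over all genes were 0.04 and −0.04. Between 24 h and 48 h, 6 of the 7 means were lower, with a median of −0.51 beside −0.09 over all genes. At the study's own thresholds, an unadjusted limma p under 0.05 and a 2-fold change, Lcn2 at 24 h was the only one of the 7 called higher (5.86% of all genes) and Hp at 48 h the only one called lower (1.82%). None was called lower at 24 h (1.82% of all genes) or higher at 48 h (4.66%). Both 24 h arrays lay above both unstimulated ones in 4 of the 7 genes (Saa1, Saa4, Lcn2 and Orm1), beside 31.3% of all genes, and below them in 0, beside 27.7%. Both 48 h arrays lay above the unstimulated ones in 2 (Saa4 and Lcn2, beside 23.8% of all genes) and below them in 2 (Saa1 and Hp, beside 35%). In 5 of the 7 (all but Cp and Ptx3) both 48 h arrays lay below both 24 h arrays, as they did in 33.7% of all genes. The whole set was selected with attention to a fall between these times. Neither this count nor the median between 24 h and 48 h can therefore serve as a test of that fall. The levels at 24 h and 48 h entered the selection, and a high level at 24 h favors such a fall. The counts and medians against unstimulated cells are therefore descriptions of the set as well. The 2 comparisons with unstimulated cells share those 2 arrays.

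The first 24 h array was alone on its slide, and the other 5 arrays shared another. On the shared slide, where 1 array stands for 24 h, the differences from unstimulated cells at 24 h were 2.74 for Saa3 and 5.17 for Saa2. There they were 0.98 for Saa1 (limma adjusted p = 0.056), 2.06 for Lcn2 (adjusted p = 0.018) and 0.53 for Saa4 (adjusted p = 0.162). From 24 h to 48 h the differences on that slide were −3.56 for Saa3 and −1.26 for Lcn2.

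The 4 Saa genes lie side by side on chromosome 7, in the order Saa3, Saa4, Saa1 and Saa2. The 5 nearest protein-coding genes on either side were examined to see whether the stretch moved as a whole. Myod1 and Tph1 were well above background on no array. Of the other 8, Ldhc, a testis form of lactate dehydrogenase, rose by 0.62 at 24 h (limma adjusted p = 0.035), and Hps5, a gene of organelle biogenesis, fell by 0.60 (adjusted p = 0.030). Saal1, which adjoins Saa3, fell by 0.65 at 48 h (adjusted p = 0.027). Ldha, the main lactate dehydrogenase of muscle, differed by 0.00 at both times (SE 0.10). The other neighbours, Kcnc1, Sergef, Gtf2h1 and Tsg101, did not pass the threshold at either time. The 3 neighbour calls were each lost when either array of either group compared was left out.

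**Figure D3:**
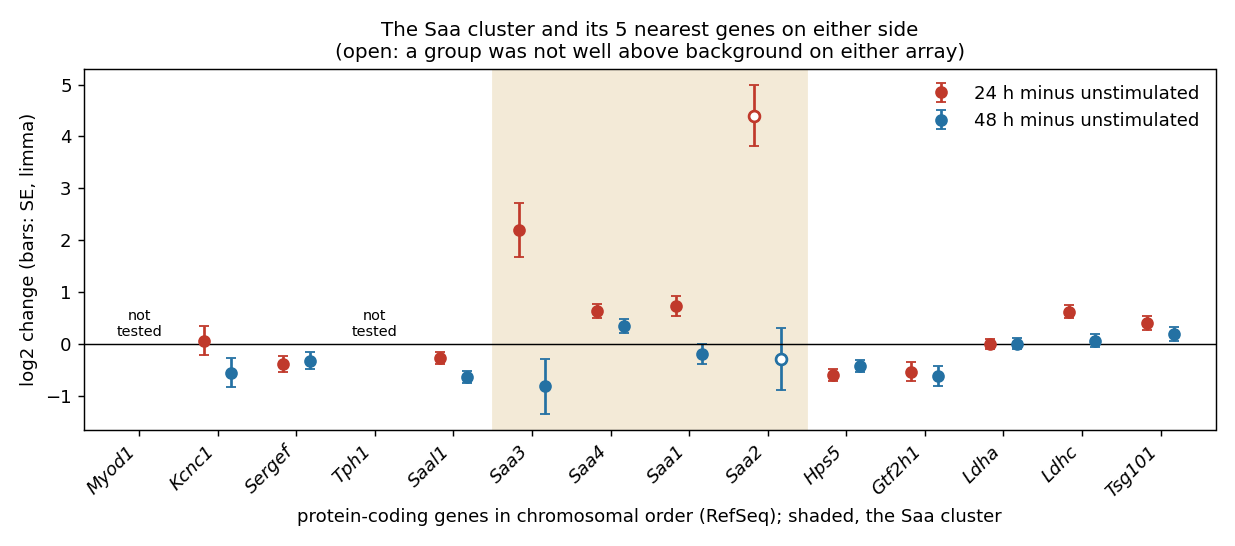
Genes stand in chromosomal order along the axis, with the 4 Saa genes shaded. Points are log2 differences from unstimulated cells at 24 h (red) and 48 h (blue) with standard errors from limma, and open points rest on a group that was not well above background. Saa3 (2.19) and Saa2 (fitted 4.40) stand out at 24 h, and the 8 neighbours tested stay between −0.65 and 0.62.

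The ligands and receptors upstream of acute phase genes were examined next. Interleukin 6 is the main inducer in the liver. Il6 was not well above background in unstimulated cells (−6.86 and −5.44), and it reached −0.71 and −0.47 at 24 h and −0.28 and 0.80 at 48 h. It was at least 17.6-fold higher at 24 h and at least 31.7-fold higher at 48 h. Il6 passed the filter only through the stimulated arrays, so these bounds are descriptions and no p-value is given. Both 48 h arrays lay above both 24 h arrays for Il6, an order that 14.2% of all genes showed, with a difference of 0.85 (SE 0.56). With normexp background correction the Il6 rises were 2.45 at 24 h and 3.23 at 48 h on the log2 scale, smaller than the bounds at 24 h and 48 h. Lif, a cytokine of the same family, was 0.93 higher at 24 h and differed by 0.09 at 48 h. It passed the filter only through the 24 h arrays, so no p-value is given for Lif either. The first unstimulated and the first 48 h array were not well above background for it. Its call at 24 h, counted below, was lost without any 1 of the 6 arrays. Il1a, which encodes interleukin 1 alpha, was well above background on 0 arrays.

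Of 8 cytokine genes tested (11 listed), 4 rose and 2 fell at 24 h, and 2 rose and 1 fell at 48 h. Il6 is among the risers at both times and Lif among those at 24 h, and both passed the filter only through stimulated arrays. Of all genes tested, 8.02% were called higher and 5.99% lower at 24 h, and 6.58% and 7.38% at 48 h. The lists were written with earlier results of these data known, so counts from them are descriptions. Of 11 receptor genes tested, 5 rose and 1 fell at 24 h, and 3 rose and 1 fell at 48 h. Osmr, the oncostatin M receptor subunit, was 1.65 higher at 24 h and 1.53 higher at 48 h without passing the threshold (limma adjusted p = 0.052 and 0.062). Il6st, which encodes gp130, differed by 0.50 at 24 h (adjusted p = 0.116) and by 0.05 at 48 h (adjusted p = 0.879). Il1r1, the interleukin 1 receptor, differed by 0.08 and −0.02 (adjusted p = 0.691 and 0.922).

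Of 11 tested genes of transcription factors that act on acute phase promoters (14 listed), 6 rose and 1 fell at 24 h, and the counts at 48 h were 6 and 1. Over all genes 8.02% were called higher and 5.99% lower at 24 h, and 6.58% and 7.38% at 48 h. This list too was written with earlier results known, so its counts are descriptions. Cebpd, the C/EBP factor induced in inflammation, was at 2.86 and 3.00 in unstimulated cells, at 5.51 and 5.74 at 24 h, and at 4.53 and 5.68 at 48 h. It rose by 2.70 (limma adjusted p = 0.013) and by 2.17 (adjusted p = 0.024), and its stimulated groups overlapped. Cebpb, its relative, differed by 0.37 and 0.30 (adjusted p = 0.125 and 0.188). Stat3 rose by 1.35 (adjusted p = 0.013) and by 1.04 (adjusted p = 0.026). Nfkbiz, an inducible NF-kB cofactor needed for Lcn2 expression in other cells, rose by 1.51 (adjusted p = 0.011) and by 1.06 (adjusted p = 0.028). Without either unstimulated array or either 24 h array the 24 h calls of Cebpd and Nfkbiz were lost, and without either 24 h array that of Stat3. At 48 h the calls were lost without either unstimulated array for Cebpd, without any 1 array but the second unstimulated one for Stat3, and without any 1 array but the first 48 h one for Nfkbiz.

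Of 9 feedback inhibitors tested, 4 rose and 0 fell at each time. Beside these stand 8.02% higher and 5.99% lower among all genes at 24 h, and 6.58% and 7.38% at 48 h. Socs3, which shuts off signaling from gp130, was at 2.84 and 2.89 in unstimulated cells, at 6.48 and 6.73 at 24 h, and at 5.39 and 6.16 at 48 h. It rose by 3.74 (limma adjusted p = 0.003) and by 2.91 (adjusted p = 0.005), and neither call was lost when any array was left out. Nfkbia, which encodes the NF-kB inhibitor IkB alpha, differed by −0.05 and −0.09 (adjusted p = 0.881 and 0.771).

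**Figure D4:**
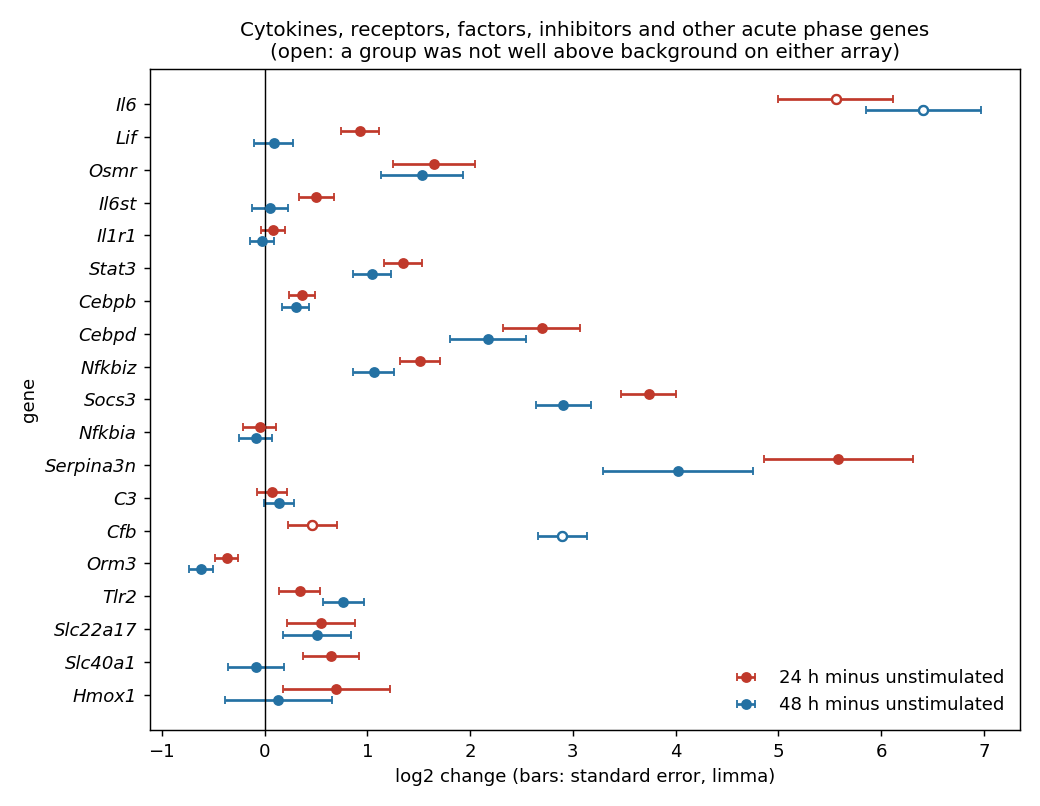
Each row is 1 gene from the lists of cytokines, receptors, transcription factors, inhibitors, other acute phase proteins, and genes of receptors and iron handling. Points are log2 differences from unstimulated cells at 24 h (red) and 48 h (blue) with standard errors from limma, and open points rest on a group that was not well above background. Socs3, Cebpd and Serpina3n lie above 2 at both times, and Nfkbia and Il1r1 lie near 0.

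Of 16 other acute phase genes tested (27 listed), 6 rose and 0 fell at 24 h, and 7 rose and 1 fell at 48 h. Among all genes 8.02% were called higher and 5.99% lower at 24 h, and 6.58% and 7.38% at 48 h. Serpina3n, a protease inhibitor of the antichymotrypsin family, was at −4.88 and −3.22 in unstimulated cells, the first not well above background. It reached 0.97 and 2.09 at 24 h and −0.66 and 0.60 at 48 h. The fitted rise was 5.58 at 24 h and 4.02 at 48 h, and it rests in part on that dim unstimulated signal. Near-identical Serpina3 copies may share the signal of this probe. Serpina3n is among the genes counted as higher at both times. It passed the filter only through the stimulated arrays, so no p-value is given. The 24 h call was lost without the second 24 h array, and the 48 h call without any 1 array of the groups compared. Cfb, complement factor B, was well above background only at 48 h (−3.53 and −3.70), at least 2.16-fold above unstimulated cells. With normexp background correction the difference was 0.63 on the log2 scale, smaller than that bound. Cfb is among the 7 counted at 48 h, but it passed the filter only through those arrays, so no p-value is given. The brightest probe of C3, the central complement protein, differed by 0.07 and 0.14 (adjusted p = 0.797 and 0.585). Another C3 probe was at −2.26 and −2.19 in unstimulated cells, −1.29 and −0.83 at 24 h, and −1.16 and −0.67 at 48 h, so the C3 probes disagreed. Orm3 decreased by 0.62 at 48 h (adjusted p = 0.028), a call lost when any 1 array was left out. Hpx and Steap4 were well above background on 0 arrays, and Serpina3g on 2.

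Of the receptors of acute phase proteins, 0 of 6 tested passed the threshold in either direction at either time (limma). Tlr2, which senses serum amyloid A among other ligands, differed by 0.34 at 24 h and 0.77 at 48 h (adjusted p = 0.309 and 0.060). Slc22a17, a lipocalin 2 receptor, differed by 0.55 and 0.51 (adjusted p = 0.332 and 0.365), and Fpr2 was well above background on 1 array. Among 9 genes of iron and heme handling, 1 rose and 2 fell at 24 h, and 0 rose and 2 fell at 48 h. The gene that rose was not well above background on any unstimulated or 48 h array. It passed the filter only through the 24 h arrays, so that count is a description. For comparison, the 24 h calls over all genes tested took in 8.02% as higher and 5.99% as lower. The 48 h calls took in 6.58% as higher and 7.38% as lower. Slc40a1, the iron exporter ferroportin, differed by 0.65 and −0.08 (adjusted p = 0.180 and 0.877), and Hmox1, heme oxygenase 1, by 0.70 and 0.13 (adjusted p = 0.431 and 0.897). Of 3 negative acute phase genes tested (9 listed), 0 passed the threshold in either direction, and Alb, the albumin gene, was well above background on 0 arrays.

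Genes of other cell types that make acute phase proteins were checked beside these changes. Of 10 hepatocyte markers, 4 were well above background on all 6 arrays, and Alb and Apoa1 on none. Their summed signal, as a multiple of the 75th percentile, was 1.51 to 1.55 in unstimulated cells, 1.64 to 1.95 at 24 h and 1.51 to 1.54 at 48 h. That sum was highest at 24 h, as were Saa3, Saa2 and Lcn2. Apoc3 alone gave 35.4% to 42.4% of it. Of 5 hepatocyte markers tested, 0 were called in either direction at either time. The macrophage markers summed to 38.2 to 43.0, 30.1 to 37.2 and 23.9 to 33.0, with 5 of 10 well above background throughout and 2 on no array. One bright probe, that of Itgam, gave 86.5% to 98.3% of this sum. Itgam differed by −0.43 at 24 h and −0.65 at 48 h without passing the threshold (limma adjusted p = 0.264 and 0.120). Of 6 macrophage markers tested, 2 rose and 0 fell at each time, Mrc1 by 4.27 and 3.56 (limma adjusted p = 0.00085 and 0.00093) and Mertk by 1.27 and 1.34 (adjusted p = 0.006 and 0.005). The neutrophil markers summed to 60.6 to 63.5, 58.3 to 66.1 and 65.2 to 80.0, with 2 of 9 on the array well above background throughout and 2 on no array. Elane gave 99.1% to 99.6% of that sum, and of 4 neutrophil markers tested 0 were called in either direction at either time. The fibroblast markers, 8 of 10 well above background on all arrays, summed to 348 to 355 in unstimulated cells, 146 to 152 at 24 h and 128 to 170 at 48 h. Col1a1 and Col1a2 together gave 89.1% to 94.6% of the sum. Of 8 fibroblast markers tested, 2 rose and 5 fell at 24 h, and 1 rose and 5 fell at 48 h. Beside the counts of all these marker lists, 8.02% of all genes were called higher and 5.99% lower at 24 h. At 48 h these shares were 6.58% and 7.38%. Dcn rose by 2.08 and 2.78 (limma adjusted p = 0.016 and 0.007), and Pdgfra by 1.33 at 24 h (adjusted p = 0.018). The same 5 fell at both times, Acta2 (−2.26 and −3.48), Pdgfrb (−1.91 and −1.12), Col1a1 (−0.88 and −1.19), Col1a2 (−1.44 and −1.23) and Col3a1 (−1.35 and −0.82). What part these shifts had in the values above was not tested. Fewer cells making a transcript and less transcript per cell cannot be told apart in such bulk RNA.

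The genes whose pattern was most like that of Saa3 were sought among 835 genes with a range of at least 2 units over the 6 arrays. By Pearson correlation over those 6 arrays, which is a description, the closest were 2310016D03Rik (0.98), Vmn2r83 (0.97), Olfr153 (0.96), Ptgds (0.96), Cyp26b1 (0.96), Ssty2 (0.95), Slurp1 (0.95) and Olfr66 (0.94). Ptgds, Cyp26b1 and Slurp1 were well above background on all 6 arrays. The other 5 were so on 2, 2, 5, 2 and 3 arrays, in the order named, and much of their range lies in dim signal. Cyp26b1, which degrades retinoic acid, was at 1.61 and 1.49 in unstimulated cells, 3.26 and 3.80 at 24 h, and 1.01 and 2.10 at 48 h. Slurp1, a secreted epithelial peptide, was at −1.51 and −1.59, then 0.21 and 0.77, then −2.24 and −2.32. Within the set, the correlation with Saa3 was 0.96 for Saa1, 0.91 for Saa2 and 0.74 for Lcn2, and −0.58 for Ptx3. The set was selected with attention to a fall like that of Saa3, so high correlations within it are partly built in. Saa2 was well above background only at 24 h.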

How the data were processed

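The authors hybridised Cyanine 3-labeled cRNA to 1-color Agilent SurePrint G3 mouse arrays and deposited the output of Agilent Feature Extraction 11.0.1 (per the submitters' processing notes), a background-subtracted linear intensity per spot with probe positions on mm9. They also deposited a table of normalized log2 values. Against the scanner signals, its differences between arrays matched within 0.05 for 99.81% of 44323 probes, and 10 of the 11 probes used here were in it. Its centring is not stated. It served as an alternative.

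Flagged outlier spots were left out (303 probes lost), repeated spots averaged, and each array's 75th percentile over non-control spots was subtracted from log2 intensity. The brightest probe stood for a gene. A gene entered the test if both arrays of 1 or more groups had it well above background (24643 genes). All 6 arrays were fitted together with limma 3.58.1 (R 4.3.3, 3 residual and 2.39 prior degrees of freedom). Tests were two-sided, p-values were adjusted by Benjamini-Hochberg over all genes tested, and a gene was called at an adjusted p under 0.05. Promoters and motifs were read with Python 3.11.15 and Biopython 1.88. On simulated data for each comparison with unstimulated cells, 92% of 200 genes changed by 3 log2 units among 24643 were recovered. Arrays of a group correlated at 0.993 to 0.994 and shared no identical values.

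The gene set, lists and motifs were chosen with earlier results of these data known. Besides the 10 genes, the text names a fixed set of pathway genes, the neighbours of the Saa cluster and the 8 genes closest to Saa3. Other names (Krt8, Cdh1, Hoxb13, Apoa1, Apoc3, Itgam, Mrc1, Mertk, Elane, Col1a1, Col1a2, Col3a1, Acta2, Pdgfrb, Dcn, Pdgfra) come from the marker lists and were picked after their values were seen. Median centring, tried as an alternative, lowers every 24 h difference by 0.30 and every 48 h difference by 0.10. Other alternatives were quantile normalization, normexp background correction, other filters and probe choices, a trend in the prior spread, fits of the compared groups only, replicate or slide blocks, leaving out each array, and the methods' t-test.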

Additional observations from a re-analysis of the deposited data

Results flagged for a closer look

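Of 36 named genes tested, Saa1 and Saa3 lay on opposite sides of the unstimulated mean at the 2 times, on both arrays of each group. Saa1 was 0.72 higher at 24 h and 0.20 lower at 48 h (−0.93 from 24 h to 48 h). Saa1 passed the limma threshold at neither time (adjusted p = 0.069 and 0.543), and its 48 h difference was about as large as its SE of 0.20. Saa3 was 2.19 higher and then 0.82 lower (−3.02 from 24 h to 48 h). These differences between the times were not tested, since the genes were chosen with that fall in view.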

How the results depend on the processing

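Among the 7 genes other than Saa2 and Saa3, the count called higher at 24 h (2) became 1 under quantile normalization, median centring, no filter on dim probes, fits of the compared groups only, the slide as a block, the study's thresholds (unadjusted p under 0.05 and 2-fold) and the methods' t-test at those thresholds. It became 4 when every array had to be well above background (Saa1 and Orm1 joined), 3 with Saa1 under normexp background correction and under an intensity trend in the prior spread (Saa1 passed in these 3 of 20 settings, lowest adjusted p 0.023), and 0 by the methods' t-test after adjustment, which called 0 genes of all tested, and it was 1 to 1 without any single array. The count called higher at 48 h (1) became 0 under median centring, no filter, the mean of a gene's probes, the study's thresholds and both forms of the t-test, and 0 to 1 without single arrays. The count called lower at 48 h (1) became 0 with no filter and by the adjusted t-test, and 0 to 1 without single arrays. The replicate block took both 48 h counts to 0. Same-numbered arrays deviated together at 0.13, 0.09 and 0.20, so the numbers were not treated as pairs. The 0 called lower at 24 h was found under every alternative. For Saa2 and Saa3, normexp background correction gave the smallest differences (24 h: 1.49 and 1.57, 48 h against 24 h: −1.54 and −1.95). From 24 h to 48 h Saa1, Saa2, Saa3, Saa4, Lcn2, Hp and Orm1 kept their direction under all alternatives run for each. Cp changed sign at 24 h under quantile normalization (0.0705), the mean of its probes (0.49), the slide block (0.49) and without the second unstimulated (0.46) or first 24 h array (0.49), and at 48 h with the mean of its probes (0.18) and without the second unstimulated (0.17) or first 48 h array (0.04). From 24 h to 48 h it did so without the second 24 h (0.21) or first 48 h array (0.04). Ptx3 did so without the second 24 h array (24 h 0.10, 48 h against 24 h −0.37), the second 48 h array (48 h 0.47) or the first 48 h array (48 h against 24 h −0.42), and Saa2 at 48 h without the second unstimulated (0.12) or second 48 h array (0.11). Without single arrays Cp ranged from −0.50 to 0.49 at 24 h, −0.75 to 0.17 at 48 h and −0.78 to 0.21 from 24 h to 48 h. Ptx3 ranged from −1.29 to 0.10, −1.02 to 0.47 and −0.42 to 1.06, and Saa2 at 48 h from −0.71 to 0.12. The causes were not tested. Under median centring the 24 h calls of Saa4, Lif and Ldhc and the 48 h calls of Lcn2, Stat3 and Nfkbiz were lost. It turned the split of all calls at 24 h from 1977 higher and 1476 lower into 1154 and 3774. With 2 arrays a group an exact permutation test cannot go below p = 0.333, and levels under background bound Saa2, Il6 and Cfb.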
